A study of Mus musculus with 40 samples.

Results

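The 9 genes described here are Egr1, Egr2, Egr3, Nr4a1, Nr4a2, Nr4a3, Ier2, Ier3 and Ier5, immediate early genes of the EGR, NR4A and IER families. They were taken by symbol from a table of 27179 genes, and each symbol had a row. The study measured poly(A) RNA in bone marrow-derived macrophages (BMDMs) from WT mice and from mice lacking Cpeb4 in all tissues (Cpeb4-/-), an RNA-binding protein that acts on mRNA 3′-UTRs. BMDMs were left untreated (0 hr) or were stimulated with 10 ng/ml lipopolysaccharide (LPS) of E. coli 0111:B4 for 1, 3, 6 or 9 hr, with 4 male mice per genotype and every mouse sampled at all 5 times, which gave 40 libraries. All mice had a mixed C57BL/6J and 129 background, and all cultures, untreated ones included, were grown with L-cell conditioned medium as the source of M-CSF. The WT mice were numbered 25, 88, 69 and 87 and the Cpeb4-/- mice 3, 62, 2 and 55, and per-mouse values are given in these orders. The mice were in 2 batches. Batch 1 held WT mice 25 and 88 and Cpeb4-/- mice 3 and 62, and batch 2 held the others. A difference within a batch thus rests on 2 mice per genotype. No cage held both genotypes, so cage and genotype cannot be told apart.

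Immediate early genes are transcribed within minutes of a signal without new protein synthesis, through factors that are already present, such as SRF with its ternary complex partners, CREB and NF-κB. Their mRNAs are short-lived, so a pulse of transcription gives a pulse of mRNA. EGR proteins are zinc finger transcription factors, and Egr2 and Egr3 are also known to restrain lymphocyte activation. NR4A proteins are nuclear receptors that act without a known physiological ligand, and Nr4a1 (Nur77) is known to limit inflammatory gene expression in macrophages. Ier2 and Ier5 encode nuclear proteins, and Ier3 encodes a regulator of apoptosis and NF-κB signalling.

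Sequence around the members was taken to show the elements that these inputs use. In the GENCODE annotation of GRCm38 (mm10), Egr2 lies at chr10:67535475-67542188, Egr3 at chr14:70077203-70082614, Nr4a1 at chr15:101254269-101274795, Nr4a3 at chr4:48045153-48086447 and Ier3 at chr17:35821684-35822923, all on the plus strand. Nr4a2 lies at chr2:57106830-57124003, Ier2 at chr8:84661331-84662852 and Ier5 at chr1:155096361-155099636, on the minus strand. RefSeq promoter windows (GRCm38.p6), each of 300 bases around a start site, were matched by symbol for 6 of the 9 members (Egr2, Nr4a1, Nr4a2, Nr4a3, Ier3 and Ier5) and were searched on both strands. The CArG box, the SRF element, was searched as CC and GG with A or T at each place between them. It was found in 4 of the 5 Egr2 windows, in none of the other members' windows, and in 1.6% of 32851 windows. The Egr2 windows at start sites 3, 4 and 5 overlap and hold the same box, so these are not separate finds. TGACG, the core of the cAMP response element that CREB binds, was found 4 times in the windows of Nr4a1, Nr4a2 and Nr4a3 alike. In Egr2 it was found in 3 of the 5 windows, the overlapping ones, at the same sites in each. Of all windows, 20.8% held it at least 1 time and 0.23% held it 4 or more times. The κB site, the NF-κB element, was found in the windows of Ier3 and Nr4a1 and in 4.5% of all windows. The stretches below show a CArG box, TGACG cores and a κB site in capitals, 5′ to 3′ on the gene's strand. They are from chr10:67537787-67537816, chr15:101266793-101266822, chr2:57124131-57124160, chr4:48045145-48045174 and chr17:35821611-35821640.

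Egr2 CArG box: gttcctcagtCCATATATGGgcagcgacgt
Nr4a1 TGACG core (reverse strand): gcccctctccatgCGTCAcggagcgcttaa
Nr4a2 TGACG core (reverse strand): cgccggctgcacgCGTCAcggagcccggcc
Nr4a3 TGACG core: cctgtggcataaaTGACGtgccgagagagc
Ier3 κB site (reverse strand): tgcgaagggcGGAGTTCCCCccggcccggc

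The 3′-UTRs were counted for ATTTA, the core of AU-rich elements through which ZFP36 (TTP) speeds mRNA decay, and for the cytoplasmic polyadenylation element (CPE) that CPEB proteins bind, first as its best known form TTTTAT and then with the other forms that the study's methods count. Those were TTTTAAT (in 31.5% of genes), TTTTAAAT (in 18.5%), TTTTACT (in 19.8%), TTTTCAT (in 24.4%), TTTTAAGT (in 9.8%) and TTTTGT (in 58.8%), each counted on the mRNA strand alone. The longest annotated 3′-UTR of each gene was used. ATTTA occurred in 8 of the 9 members, Ier2 being the exception, against 69.3% of the 11955 genes tested that had a 3′-UTR. Its density was 8.16 per kb in Ier3 and 5.52 per kb in Nr4a1, against 1.81 per kb over all these 3′-UTRs. TTTTAT occurred in Egr1, Egr3, Nr4a2 and Nr4a3 and not in the 3′-UTRs of Egr2, Nr4a1, Ier2, Ier3 and Ier5, against 56.5% of genes. With all 7 forms, 7 of the 9 members held at least 1, Ier2 and Ier3 being the exceptions, against 77.4% of genes. Egr2 held TTTTGT 4 times and Nr4a1 held it 1 time, and Ier5 held it 5 times beside 1 TTTTAAAT. For Nr4a1 and Ier3, a short stretch with as many ATTTA copies as any other of its length is shown, with the copies in capitals.

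Nr4a1 3′-UTR, bases 449 to 478: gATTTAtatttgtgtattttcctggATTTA
Ier3 3′-UTR, bases 174 to 203: ctaattaatATTTAtgtATTTAtgtatatc

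The values are rlog, a log2-scale transform of normalised counts that shrinks differences of weakly expressed genes, so changes of Egr3, Nr4a2 and Nr4a3 are understated most. The table holds no read counts, so the depth behind each value is not known from it. Replicates of a group correlated at r of 0.9919 to 0.9981. Cpeb4 itself, the targeted gene, did not overlap between genotypes at 6 hr (WT 10.09 to 10.67, Cpeb4-/- 8.74 to 9.66) and overlapped at the other times. Its row counts the whole gene, which can include exons that the deletion leaves, so it checks the genotype labels only at 6 hr. Macrophage markers were high in every library (Adgre1 15.5 to 16.5, Csf1r 15.1 to 15.9), while Cd3e and Ly6g, which mark T cells and neutrophils, were below 1 in all. Other markers of these and other cell types were detected in both genotypes, among them the neutrophil genes S100a8 (5.00 to 7.70) and S100a9 (3.93 to 6.01), the T cell kinase Lck (4.69 to 8.51) and the dendritic cell receptor Xcr1 (4.42 to 7.06), and their part in the results was not tested. The number of genes called between genotypes at 1, 3 and 9 hr was 251, 481 and 1029 with all mice and varied by several fold when 1 mouse was left out. It rose to 2440 without WT mouse 69 and 721 without Cpeb4-/- mouse 2 at 1 hr, to 2584 without WT mouse 88 at 3 hr and to 4575 without Cpeb4-/- mouse 2 at 9 hr, and it fell to as few as 40 and 76 without Cpeb4-/- mouse 3 at 1 and 3 hr and 387 without WT mouse 25 at 9 hr.

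All 9 members rose within 1 hr of LPS in WT BMDMs, and all 9 rose in Cpeb4-/- BMDMs. A gene was called at a Benjamini-Hochberg adjusted p under 0.05 over all genes tested, by limma on the rlog values. In this interval 17.3% of 13100 genes were called higher and 16.6% lower in WT, and 23.8% of 13116 genes higher and 20.0% lower in Cpeb4-/-. The median change over the members was 2.36 in WT, against 0.02 over all genes. In bulk RNA a change can come from a different number of cells of a type or from a different amount of RNA per cell, which cannot be told apart. Egr1, the best known immediate early transcription factor of the set, went from 7.79, 7.75, 7.90 and 7.79 to 11.99, 11.78, 11.88 and 11.85 in the 4 WT mice, a log2 change of 4.07 ± 0.11 (SE, n = 4) or 16.8-fold. Every mouse was far above its own start, and the Cpeb4-/- change was 4.01 ± 0.10 (SE, n = 4). Nr4a1 followed with 3.61 ± 0.16 in WT, and then Egr3 with 2.80 ± 0.20, Ier3 with 2.41 ± 0.08, Egr2 with 2.36 ± 0.13 and Ier2 with 1.87 ± 0.10. Nr4a3, Ier5 and Nr4a2 rose by the least in WT, with changes of 1.10 ± 0.27, 1.09 ± 0.06 and 0.86 ± 0.21.

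**Figure D1:**
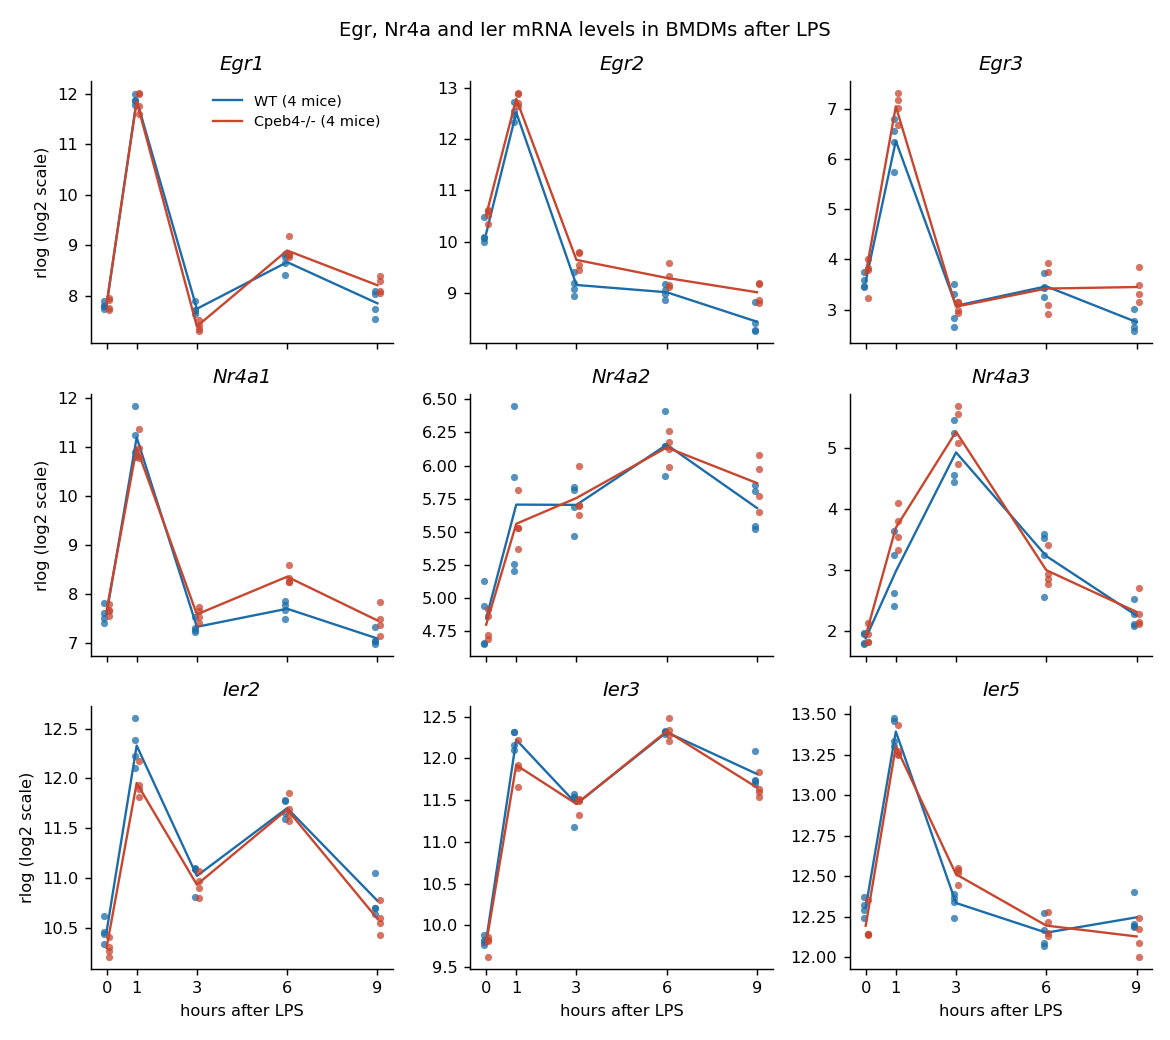
rlog values (log2 scale) of the 9 genes against hours after LPS, with 1 point per mouse and lines through the means of 4 WT (blue) and 4 Cpeb4-/- (red) mice; each panel has its own vertical range. Egr1, Egr2, Egr3, Nr4a1, Ier2 and Ier5 had their highest means at 1 hr, Egr1, Ier2 and Ier3 fell by 3 hr and rose again by 6 hr in both genotypes, and Nr4a3 peaked at 3 hr.

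The members then parted into pulses of different shape, which are given as the level on the linear scale (2 to the power of rlog) in percent of the same mouse's highest time. Egr1, Egr2, Egr3, Nr4a1, Ier2 and Ier5 peaked at 1 hr in all 8 mice. Nr4a3 peaked at 3 hr in all 8 mice, Nr4a2 at 6 hr in 7 mice and Ier3 at 6 hr in 7 mice, the exceptions being WT mouse 69 for Nr4a2 and WT mouse 88 for Ier3, which peaked at 1 hr. In WT at 3 hr, Egr1 was back at 5.71% ± 0.52 (SD, n = 4) of its peak, Nr4a1 at 6.98% ± 1.55, Egr2 at 9.79% ± 1.02 and Egr3 at 10.8% ± 3.53. Ier2, Ier5 and Ier3 kept more of it, with 40.9% ± 7.73, 48.1% ± 3.87 and 55.3% ± 6.65. These are descriptions within each mouse, since peak times were read from the same values.

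**Figure D2:**
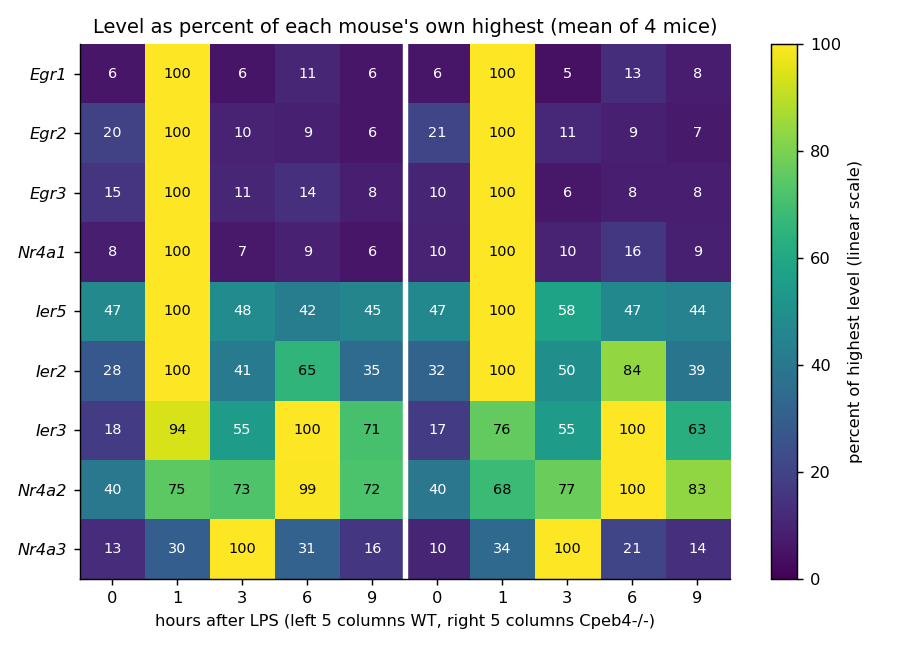
Mean level of each gene (rows) at 0, 1, 3, 6 and 9 hr (columns, WT on the left and Cpeb4-/- on the right) as percent of each mouse's own highest level, on the linear scale, averaged over 4 mice. In the upper 4 rows no later mean exceeds 16.2% of the peak, whereas Ier3 and Nr4a2 were near their highest level at 6 hr.

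From 1 to 3 hr, 7 members fell in WT, where 32.1% of genes were called lower, and the same 7 (Egr1, Egr2, Egr3, Nr4a1, Ier2, Ier3 and Ier5) fell in Cpeb4-/-, where 33.5% were. The falls of Egr1 were by 4.14 ± 0.11 in WT and by 4.45 ± 0.10 in Cpeb4-/- on the log2 scale (SE, n = 4). Nr4a3 was the single member called higher in this interval, where 28.0% of genes in WT and 30.5% in Cpeb4-/- were called higher. It went from 3.65, 2.40, 3.24 and 2.62 at 1 hr to 4.45, 5.47, 5.25 and 4.56 at 3 hr in the WT mice, a change of 1.96 ± 0.27, and by 1.58 ± 0.21 in Cpeb4-/-. No WT value at 1 hr reached the lowest at 3 hr. Nr4a2 differed by -0.0022 ± 0.21 in WT and by 0.19 ± 0.11 in Cpeb4-/- between these times, and neither passed the test.

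A later rise from 3 to 6 hr was seen in part of the set. In WT, Egr1 rose by 0.92 ± 0.11, Ier2 by 0.68 ± 0.10 and Ier3 by 0.86 ± 0.08 (SE, n = 4), where 33.3% of all genes were called higher. In Cpeb4-/-, the same 3 genes rose, by 1.50 ± 0.10, 0.75 ± 0.08 and 0.87 ± 0.09, and Nr4a1 and Nr4a2 also passed the test, with 0.77 ± 0.13 and 0.38 ± 0.11, against 32.4% of genes. For Nr4a1 and Nr4a2 in WT the changes were 0.37 ± 0.16 and 0.45 ± 0.21, with adjusted p of 0.052 and 0.060 by limma. With the mouse as a block, which uses that each mouse was sampled at all times, both were called (adjusted p = 0.0049 and 0.0094), against 35.8% of genes called higher. Nr4a3 and Ier5 fell in both genotypes, Nr4a3 by 1.70 ± 0.27 in WT and 2.28 ± 0.21 in Cpeb4-/-, and Egr2 fell in Cpeb4-/-, where 32.1% of genes were called lower against 30.4% in WT. The calls of Ier5 in WT, of Egr2 and of Nr4a2 in Cpeb4-/- were lost without WT mouse 25, Cpeb4-/- mouse 62 and Cpeb4-/- mouse 55 (adjusted p = 0.0771, 0.0904 and 0.0519), and Nr4a1 was called in WT without mouse 69 (adjusted p = 0.0068). Egr3 was called higher in Cpeb4-/- without mouse 2 (0.56, adjusted p = 0.0452).

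From 6 to 9 hr, 7 members fell in WT and 6 in Cpeb4-/-, against 27.9% and 28.0% of all genes, and none rose, against 23.5% and 25.6%. After quantile normalization Ier5 was called higher in WT (0.29, adjusted p = 0.000184), against a difference of 0.09 before it. The Cpeb4-/- calls of Egr2 and Nr4a3 were lost without mouse 3 (adjusted p = 0.0881 and 0.0565) or mouse 55 (0.189 and 0.0634), and that of Egr2 without mouse 62 (0.105). Nr4a2, which was uncalled in both genotypes, passed with the mouse as a block in WT (log2 difference -0.48 ± 0.14, adjusted p = 0.0085; 31.0% of genes called lower) and in Cpeb4-/- (-0.27 ± 0.10, adjusted p = 0.033; 30.8%). At 9 hr the members stood at different places relative to the untreated level. Egr2 was below it, by a log2 difference of -1.72 ± 0.13 in WT and -1.50 ± 0.11 in Cpeb4-/-, and the 9 hr values of 8.25, 8.41, 8.82 and 8.28 in WT were all under the 0 hr values of 10.09, 10.06, 10.49 and 9.99. Ier3 was above it by 2.00 ± 0.08 in WT and 1.87 ± 0.09 in Cpeb4-/-, and Nr4a2 by 0.83 ± 0.21 and 1.07 ± 0.11. Ier2 was called higher in both genotypes, Egr1 higher in Cpeb4-/-, and Egr3 and Nr4a1 lower in WT. This made 3 members higher and 3 lower in WT (35.9% and 35.6% of all genes) and 4 higher and 1 lower in Cpeb4-/- (36.4% for each direction). With the mouse as a block, Nr4a1 (-0.21 ± 0.08, adjusted p = 0.024) and Nr4a3 (0.39 ± 0.17, adjusted p = 0.049) were called too in Cpeb4-/-, where 75.7% of all genes were. After quantile normalization, without the block, this Nr4a1 difference was 0.0483 with an adjusted p of 0.765. Without WT mouse 25 the WT calls of Nr4a1 and Ier2 were lost (adjusted p = 0.0648 and 0.0558), and without WT mouse 69 that of Ier2 (adjusted p = 0.0755), whereas Nr4a1 was called lower in Cpeb4-/- without mouse 62 (-0.29, adjusted p = 0.010). After quantile normalization the calls of Ier2 in both genotypes and of Nr4a1 in WT were lost, while Ier5 was called lower in WT and Cpeb4-/- (-0.49 and -0.47) and Egr1 higher in WT (0.31).

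Nr4a1 gave the difference between the genotypes that held under every alternative limma fit, at 6 hr. At this time it was at 7.68, 7.48, 7.86 and 7.79 in the WT mice and at 8.25, 8.60, 8.34 and 8.24 in the Cpeb4-/- mice. All 4 Cpeb4-/- values lay above all 4 WT values. The difference was 0.65 ± 0.10 on the log2 scale, or 1.57-fold (SE, n = 4 per genotype; limma, adjusted p = 0.0013), and it was 0.84 in batch 1 and 0.47 in batch 2. Nr4a1 was the 1 member called at 6 hr, where 6.40% of 13039 genes were called higher and 9.92% lower, and the 1 member with groups that did not overlap, against 8.16% of genes with Cpeb4-/- wholly above WT. The call was kept without any single mouse. By a two-sided exact permutation test of the levels, p was 0.0286, the smallest possible, and 0.198 adjusted over 45 member differences. In all, 5 of these 45 reached that smallest p. The 1 hr peak did not show this order, with 11.25, 10.91, 11.85 and 10.81 in WT and 10.79, 11.37, 10.99 and 10.81 in Cpeb4-/-. That difference was -0.21 ± 0.22 with all mice and 0.0024 without WT mouse 69, the highest library, and neither passed the test. At 3 and 9 hr the Cpeb4-/- means were 0.25 ± 0.09 and 0.37 ± 0.14 higher, with adjusted p of 0.15 and 0.12 by limma. The 3 hr difference was 0.23 without WT mouse 88 (adjusted p = 0.115) and the 9 hr difference 0.36 without Cpeb4-/- mouse 2 (adjusted p = 0.0765).

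**Figure D3:**
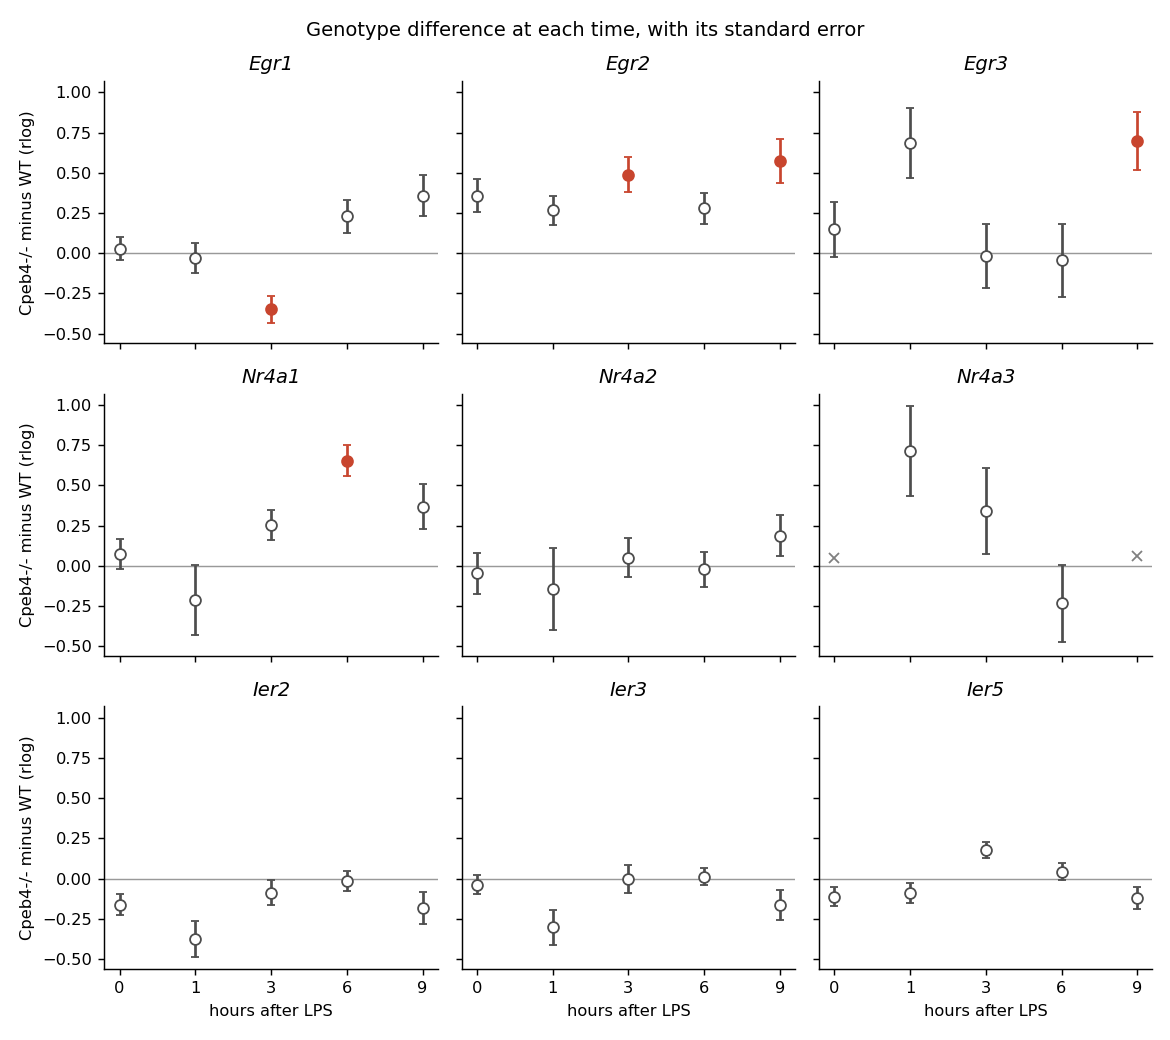
Difference Cpeb4-/- minus WT in rlog (log2 scale) at each time after LPS for the 9 genes, with the standard error of limma as bars; filled red points are called at an adjusted p under 0.05, open points are not, and grey crosses for Nr4a3 at 0 and 9 hr mark mean differences that were not tested. The 5 called points are Egr1 and Egr2 at 3 hr, Nr4a1 at 6 hr, and Egr2 and Egr3 at 9 hr.

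Nr4a1 was also set against each mouse's own peak. At 6 hr it was at 9.10% ± 2.51 (SD, n = 4) of the peak in WT, with a range of 6.29% to 12.3%, and at 16.2% ± 1.10 in Cpeb4-/-, with a range of 14.7% to 17.2%. At 9 hr it was at 5.91% ± 1.28 in WT and at 8.69% ± 0.47 in Cpeb4-/-, a difference of 2.78 percentage points. The groups did not overlap at either time, and how many of all genes do so on this measure was not counted. For rlog levels, 8.16% of genes at 6 hr and 8.35% at 9 hr had Cpeb4-/- wholly above WT. The two-sided exact permutation p was 0.0286 at each, the smallest that 4 against 4 can give, and adjusted over the 9 members it was 0.17 at 6 hr and 0.20 at 9 hr. The mean Nr4a1 share was higher in Cpeb4-/- at 0 hr too (10.1% against 8.36%) and at 3 hr (9.56% against 6.98%). It depends on the 1 hr peak, which had the lower mean in Cpeb4-/- (log2 difference -0.21, not called). The 9 hr rlog levels overlapped (WT 6.98 to 7.32, Cpeb4-/- 7.15 to 7.84), so the 9 hr separation is not one of the level alone. The other 8 members had exact permutation p of 0.0857 or more at 9 hr. At 6 hr Egr3 and Nr4a3 were lower in Cpeb4-/-, by differences of -5.6 and -10.5 percentage points. Their exact permutation p was 0.0571 each, and 0.17 after adjustment, the same as that of Nr4a1. The remaining members had an exact permutation p of 0.114 or more at 6 hr. The change of Nr4a1 from 0 to 6 hr was 0.58 ± 0.22 larger in Cpeb4-/- than in WT on the log2 scale, with an adjusted p of 0.16 by limma without the block and of 0.0079 with the mouse as a block, where 2.94% and 7.88% of all genes were called.

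**Figure D4:**
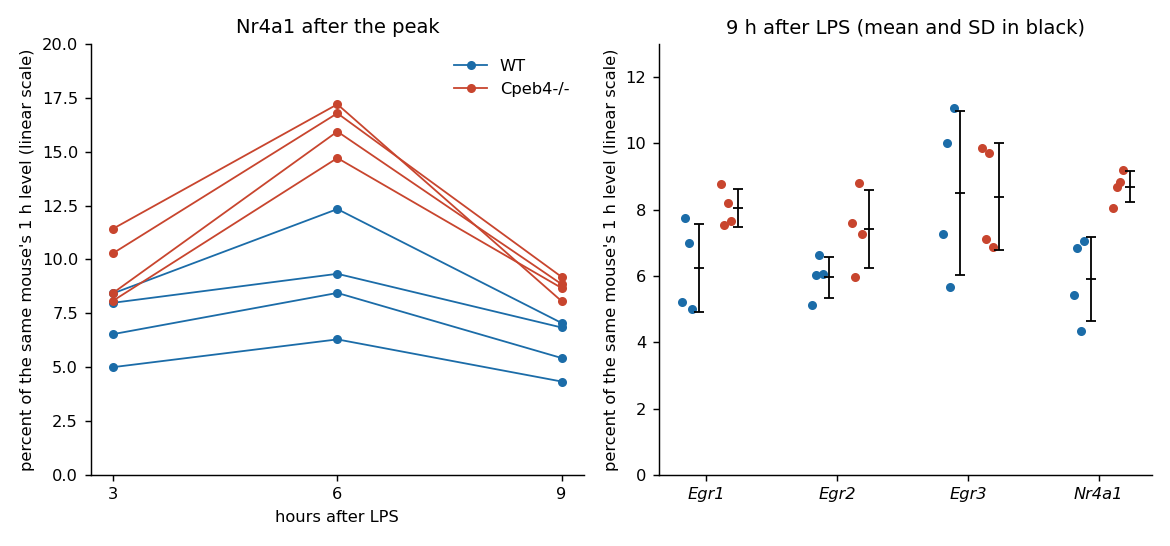
Left, Nr4a1 level at 3, 6 and 9 hr in each mouse as percent of the same mouse's 1 hr level (linear scale), with 1 line per mouse, WT in blue and Cpeb4-/- in red. Right, the same percentage at 9 hr for Egr1, Egr2, Egr3 and Nr4a1, with 1 point per mouse and the mean and SD of 4 mice in black; the Nr4a1 groups do not overlap at 6 or 9 hr.

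Egr2 was higher on average in Cpeb4-/- at all 5 times, by 0.36, 0.27, 0.49, 0.28 and 0.57 on the log2 scale at 0, 1, 3, 6 and 9 hr, and passed the test at 3 and 9 hr. At 3 hr it was at 8.94, 9.19, 9.41 and 9.08 in WT and at 9.79, 9.79, 9.55 and 9.45 in Cpeb4-/-, with no overlap (0.49 ± 0.11, adjusted p = 0.039 by limma). At 9 hr it was at 8.25, 8.41, 8.82 and 8.28 against 9.18, 8.80, 9.20 and 8.87, where WT mouse 69 was above the lowest Cpeb4-/- mouse (0.57 ± 0.13, adjusted p = 0.029). WT mouse 69 was the highest WT mouse for Egr2 at every time. Without it Egr2 was also called at 0 hr (0.47, adjusted p = 0.013) and at 1 hr (0.34, adjusted p = 0.040), where 9.69% of all genes were called higher. Leaving out the highest WT mouse raises a difference of this direction in any case, so these calls add no support. Without any other single mouse Egr2 was not called at 0 or 1 hr, with adjusted p up to 0.299 and 0.231. The differences were larger in batch 1 than in batch 2 at each time, for example 0.72 and 0.26 at 3 hr, and had the same sign in both. The calls at 3 and 9 hr were kept without WT mouse 88 at 3 hr (adjusted p = 0.020) and without Cpeb4-/- mouse 2 at 9 hr (adjusted p = 0.014). The 3 hr call was lost without WT mouse 25 or 87 or Cpeb4-/- mouse 3, 62 or 2 (adjusted p = 0.105, 0.0772, 0.134, 0.110 and 0.0807), and the 9 hr call without WT mouse 25, 88 or 87 or Cpeb4-/- mouse 3 (adjusted p = 0.0942, 0.0637, 0.0897 and 0.0774).

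Egr1 had a lower Cpeb4-/- mean at 3 hr and higher means at 6 and 9 hr, and of these the 3 hr difference passed the test. At 3 hr it was at 7.70, 7.64, 7.90 and 7.72 in WT and at 7.33, 7.42, 7.52 and 7.29 in Cpeb4-/-, so that all Cpeb4-/- values lay below all WT values. The difference was -0.35 ± 0.08 (adjusted p = 0.046 by limma), and -0.38 without WT mouse 88 (adjusted p = 0.018). Without any of the other 7 mice the call was lost, with adjusted p of 0.0712 to 0.146. At 6 hr and 9 hr the differences were 0.23 ± 0.10 and 0.36 ± 0.13, with adjusted p of 0.15 and 0.11, and the groups overlapped. The 9 hr difference was 0.30 without Cpeb4-/- mouse 2 (adjusted p = 0.0898). With all 40 libraries and the mouse as a block the 9 hr difference was called (adjusted p = 0.019), in a fit that called 18.1% of all genes at 9 hr.

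Egr3, a weakly expressed member, was called higher in Cpeb4-/- at 9 hr. It was at 2.77, 3.02, 2.65 and 2.56 in WT and at 3.84, 3.50, 3.31 and 3.15 in Cpeb4-/-, with no overlap (0.70 ± 0.18, adjusted p = 0.042 by limma). The difference was 0.75 without Cpeb4-/- mouse 2 (adjusted p = 0.016). Without WT mouse 25, 69 or 87 or Cpeb4-/- mouse 3 or 62 the call was lost (adjusted p = 0.0986, 0.106, 0.113, 0.110 and 0.107). At 1 hr it was at 6.55, 6.34, 6.80 and 5.74 in WT and at 7.18, 7.31, 6.67 and 7.02 in Cpeb4-/-, where 1 Cpeb4-/- mouse lay below the highest WT mouse. That difference was 0.69 ± 0.22 with an adjusted p of 0.088, and 0.83 without WT mouse 69 with an adjusted p of 0.042. The fit without WT mouse 69 called 9.69% of all genes higher. That mouse was the highest WT mouse for Egr3 at 1 hr. Leaving it out raises this difference in any case, so that call adds no support. Without any other single mouse Egr3 was not called at 1 hr, with adjusted p up to 0.225. At 3 and 6 hr the mean differences were -0.02 ± 0.20 and -0.04 ± 0.23, and the 3 hr one was 0.13 without WT mouse 88.

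Thus 2 of the 9 members were called at 3 hr, Egr2 higher and Egr1 lower, where 1.81% of 13083 genes were called higher and 1.87% lower, and 2 of 8 tested were called higher at 9 hr, where 4.69% of 13008 genes were called higher and 3.22% lower. At 3 hr the groups did not overlap for Egr2 and Ier5 above WT (7.05% of genes) and for Egr1 below WT (6.58%), and at 9 hr for Egr3 above WT (8.35%). None of 8 members was called at 0 hr, where 0.741% of 13095 genes were called higher and 0.565% lower, and none of 9 at 1 hr, where 0.976% of 13118 were called higher and 0.938% lower. At an unadjusted p under 0.05 by limma there were 2 members at 0 hr and 5 at 1 hr, against 17.6% and 35.3% of all genes. The 2 at 0 hr were Egr2 and Ier2, and the 5 at 1 hr were Egr2, Egr3, Ier2, Ier3 and Nr4a3.

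Ier2 and Ier3 had the lower Cpeb4-/- means at 1 hr. Ier2 was at 12.22, 12.39, 12.11 and 12.60 in WT and at 11.82, 11.90, 12.17 and 11.93 in Cpeb4-/-, a difference of -0.38 ± 0.11 (adjusted p = 0.080 by limma). Ier3 was at 12.10, 12.31, 12.16 and 12.32 in WT and at 11.66, 11.92, 12.22 and 11.88 in Cpeb4-/-, a difference of -0.30 ± 0.11 (adjusted p = 0.10). Cpeb4-/- mouse 2 was within the WT range for both genes, and the other 3 Cpeb4-/- mice were below it. Without that mouse both were called (adjusted p = 0.0495 for Ier2 and 0.042 for Ier3), where 2.41% of all genes were called lower. Without WT mouse 69 Ier2 was called (adjusted p = 0.040) and Ier3 was not (0.0713), where 8.91% of all genes were called lower. Mouse 2 was the highest Cpeb4-/- mouse for both genes, and WT mouse 69 was the lowest WT mouse for Ier2. Leaving out such a mouse enlarges a difference of this direction in any case, so these calls add no support. Without any other single mouse neither gene was called, with adjusted p up to 0.213 for Ier2 and 0.239 for Ier3. At 6 hr the Ier2 and Ier3 differences were -0.01 ± 0.06 and 0.01 ± 0.05. They were -0.16 ± 0.07 and -0.04 ± 0.06 at 0 hr, and -0.18 ± 0.10 and -0.16 ± 0.09 at 9 hr, and none of these was called. The 9 hr differences were -0.245 and -0.224 when Cpeb4-/- mouse 2 was left out (adjusted p = 0.0513 and 0.0551 by limma). That mouse was the highest Cpeb4-/- mouse for both genes at 9 hr.

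Nr4a3 had a higher Cpeb4-/- mean on its way up, Nr4a2 varied little with genotype, and Ier5 had its largest difference at 3 hr. At 1 hr Nr4a3 was at 3.65, 2.40, 3.24 and 2.62 in WT and at 4.10, 3.80, 3.33 and 3.55 in Cpeb4-/-, with overlap (0.72 ± 0.28, adjusted p = 0.11 by limma; 0.80 and 0.0781 without WT mouse 69). At its 3 hr peak the difference was 0.34 ± 0.27, and 0.52 without WT mouse 88 (adjusted p = 0.155), and at 0 and 9 hr its mean was below the filter on low values. The 5 Nr4a2 differences lay between -0.14 and 0.19, and none passed the test. The 9 hr one was 0.26 without Cpeb4-/- mouse 2 (adjusted p = 0.119). Ier5 was at 12.34, 12.24, 12.37 and 12.39 in WT and at 12.54, 12.55, 12.44 and 12.52 in Cpeb4-/- at 3 hr, without overlap. The difference of 0.18 ± 0.05 did not pass (adjusted p = 0.072). It passed without WT mouse 88 (adjusted p = 0.040), where 10.8% of all genes were called higher. Without any other single mouse it did not pass, with adjusted p up to 0.198. A fit of all 40 libraries with the mouse as a block called Egr3, Nr4a3, Ier2 and Ier3 at 1 hr (adjusted p = 0.016, 0.029, 0.0078 and 0.014). That fit called 33.0% of all genes at 1 hr, against 251 genes when the 8 libraries of that time were fitted alone.

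The change from 0 hr was compared between genotypes in a fit of all 40 libraries. No member was called for the change to 1, 3, 6 or 9 hr, where 0.00763%, 0.206%, 2.94% and 1.76% of 13103 genes were called. Members with an unadjusted p under 0.05 by limma were Ier3 at 1 hr (-0.26 ± 0.13), Egr1 and Ier5 at 3 hr (-0.38 ± 0.15 and 0.29 ± 0.08), Nr4a1 at 6 hr (0.58 ± 0.22) and Egr1 at 9 hr (0.33 ± 0.15). Of all genes, 1.57%, 5.03%, 15.1% and 12.0% passed this unadjusted threshold for the change to 1, 3, 6 and 9 hr. The mouse as a block added the call of Nr4a1 at 6 hr given above and no other. The changes from 1 to 3, 3 to 6 and 6 to 9 hr were compared between genotypes too, and no member was called. Closest was Egr1 from 3 to 6 hr, 0.58 ± 0.15 larger in Cpeb4-/- (adjusted p = 0.0566 by limma without the block). All other members and intervals had an adjusted p of 0.2327 or more.

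Other immediate early genes rose with the members. Of 38 listed, such as the AP-1, KLF and DUSP genes, 35 were tested in the time course. From 0 to 1 hr in WT, 29 rose and 4 fell, with a median change of 1.39, where 17.3% of all genes rose and 16.6% fell. The largest changes were those of Maff, a small MAF transcription factor (4.10 ± 0.08), Csrnp1, a nuclear protein (4.02 ± 0.06), the MAP kinase phosphatases Dusp2 (3.76 ± 0.10) and Dusp5 (3.67 ± 0.13), and the AP-1 subunit Fosb (3.23 ± 0.23). Between genotypes, 4 were called higher and 10 lower at 6 hr, where 6.40% of all genes were called higher and 9.92% lower. Fosl1, the AP-1 subunit FRA-1, was 1.04 ± 0.17 higher in Cpeb4-/- at 6 hr, and Rgs2, a regulator of G protein signalling, was lower at 3 hr (-0.45 ± 0.07) and at 6 hr (-0.61 ± 0.11). Rgs1 and Dusp2 were lower at 6 hr as well (-0.45 ± 0.14 and -0.42 ± 0.05). Klf10, a zinc finger transcription factor, was higher at 3, 6 and 9 hr (0.35 ± 0.06, 0.45 ± 0.08 and 0.51 ± 0.06), and Fos was higher at 9 hr (0.40 ± 0.08). Sgk1 was lower at 3 hr (-0.37 ± 0.09) and higher at 9 hr (0.52 ± 0.06), and Trib1 and Klf2 were higher at 3 hr (0.51 ± 0.07 and 0.46 ± 0.10). At 1 hr Klf4 and Plk2 were called higher and none lower of 36 tested (0.976% and 0.938% of all genes), at 3 hr 5 higher and 5 lower (1.81% and 1.87%), and at 9 hr 3 higher and 1, Ets2, lower (4.69% and 3.22%). Without WT mouse 69 at 1 hr 6 were called higher and 2 lower (9.69% and 8.91% of all genes), without WT mouse 88 at 3 hr 8 higher and 10 lower (10.8% and 8.94%), and without Cpeb4-/- mouse 2 at 9 hr 5 higher and 5 lower (18.4% and 16.8%).

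Of 26 listed regulators and partners, 25 were tested, and from 0 to 1 hr 7 rose and 2 fell in WT (17.3% and 16.6% of all genes), against 14 and 1 in Cpeb4-/- (23.8% and 20.0%). The difference between genotypes in these counts was not tested. Those that rose in WT included the kinase Mapkapk2 (0.90 ± 0.05), Creb1 (0.66 ± 0.06), Map3k8, the kinase upstream of ERK in the LPS response (0.65 ± 0.06), and Nab1 and Nab2, corepressors that bind EGR proteins (0.53 ± 0.07 and 0.39 ± 0.06). Against WT, Nab2 was higher in Cpeb4-/- at 3 hr (0.32 ± 0.06, adjusted p = 0.023 by limma), when Egr2 was higher and Egr1 lower, and Nab1 was lower at 6 hr (-0.24 ± 0.06, adjusted p = 0.012). Crem, a modulator of CREB targets, was lower at 1 and 3 hr (-0.36 ± 0.07 and -0.33 ± 0.06), and Elk3, a ternary complex partner of SRF, was higher at 6 and 9 hr (0.45 ± 0.08 and 0.52 ± 0.07). Rxra, which forms heterodimers with Nr4a1 and Nr4a2, was lower at 3 hr (-0.22 ± 0.05). In all, 0, 0, 1, 2 and 1 of the 25 were called higher and 0, 1, 3, 3 and 0 lower at 0, 1, 3, 6 and 9 hr. Of all genes, 0.741%, 0.976%, 1.81%, 6.40% and 4.69% were called higher at these times. The shares called lower were 0.565%, 0.938%, 1.87%, 9.92% and 3.22%. Without WT mouse 69 at 1 hr 4 were called higher and 3 lower (9.69% and 8.91% of all genes). Without WT mouse 88 at 3 hr these were 5 and 3 (10.8% and 8.94%), and without Cpeb4-/- mouse 2 at 9 hr 6 and 3 (18.4% and 16.8%).

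Likeness of pattern was described by Pearson's r over the 10 group means, which share libraries and the time course and carry no test. Among the members, Egr1 and Nr4a1 were the most alike (r = 0.979), followed by Egr3 and Nr4a1 (0.971), and Nr4a2 was most like Ier3 (0.935). Nr4a3 had an r of at most 0.421 with any other member. Of the other genes with mean rlog past the filter, Egr1 was closest to Gtf2ird2 (0.982) and Btg2 (0.977), Egr2 to Ing3 (0.997) and Fosb (0.970), and Egr3 to Dusp4 (0.983) and Gtf2ird2 (0.980). Nr4a1 was closest to Tmem88 (0.987) and Gtf2ird2 (0.977), Nr4a2 to Tcf25 (0.979) and Prkar1a (0.978), and Nr4a3 to Myo1g (0.994) and Heca (0.993). Ier2 was closest to Rabgef1 (0.953) and Nat14 (0.950), Ier3 to Ets2 (0.977) and Snx18 (0.975), and Ier5 to Nfkbid (0.984) and Zbtb17 (0.980). Some of these genes spanned a small range, as Tcf25 and Prkar1a with 0.365 and 0.215 on the log2 scale.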

How the data were processed

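Poly(A) RNA-seq was done on 40 BMDM libraries (8 mice at 5 times). The authors aligned reads with STAR 2.3.0e to mm10, counted them with featureCounts and transformed the counts with DESeq2; the deposited table holds rlog values on the log2 scale, and whether counting used strand is not given in the sources used here. Members, lists and tests were chosen with earlier results of these data known.

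From the rlog values, limma 3.58.1 (eBayes with trend) was fitted over all genes with mean rlog of at least log2 of 5 among the libraries of the fit, with Benjamini-Hochberg adjustment and a threshold of 0.05. Fits used the 8 libraries of a time for genotype, the 20 of a genotype for time, and all 40 for the difference in change. Single values used exact two-sided permutation tests (scipy). A mouse number marks the same animal at every time: same-mouse deviations from the group means had a median r of 0.29, against -0.091 for different mice. No 2 replicates were identical. Each table row is a gene symbol. Genes named are the members, at most 5 per list by size of a called difference, and 2 nearest patterns per member. Alternatives were no filter, a filter of 5, no trend, batch as covariate, quantile normalization, a pooled or mouse-blocked fit, and leaving out each mouse. The table gives no read totals, so no counting error is given. Of 27179 genes, 6395 were at 0 in every library.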

Additional observations from a re-analysis of the deposited data

Results flagged for a closer look

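In 90 groups of 4 libraries (9 genes, 2 genotypes, 5 times), 9 values of a single mouse lay apart from the other 3 by a gap above Dixon's 95% critical value, and chance gives about 1 in 20 groups. WT mouse 69 was high at 9 hr for Ier2 (11.05, the others 10.64 to 10.70), Ier3 (12.09, the others 11.69 to 11.74) and Ier5 (12.40, the others 12.19 to 12.21). WT mouse 88 was low at 3 hr for Ier2 (10.81, the others 11.09 to 11.10) and Ier3 (11.18, the others 11.53 to 11.57). Among Cpeb4-/- libraries, mouse 3 was high for Egr1 at 6 hr (9.17, the others 8.77 to 8.83) and low for Ier3 at 3 hr (11.32, the others 11.48 to 11.51). Cpeb4-/- mouse 55 was high for Ier5 at 0 hr (12.35, the others 12.14), and mouse 2 was high for Ier5 at 1 hr (13.43, the others 13.25 to 13.28). No cause was tested.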

How the results depend on the processing

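The call of Nr4a1 at 6 hr was kept under every alternative limma fit and without any single mouse, with adjusted p of 0.000636 to 0.0394. The rise at 1 hr was called for all 9 members in both genotypes without any single mouse and under the alternatives tried, except that the filter of 5 left 7 to test. The other genotype calls were close to the threshold. At 3 hr 2 members were called, against 0 with no filter on low values, 0 without a trend in eBayes and 0 with batch as a covariate, and 3 after quantile normalization and in the pooled fit of 40 libraries, which added Ier5 (adjusted p = 0.043 and 0.0489). At 9 hr 2 were called, against 0 with no filter, 1 with a filter of 5, 1 without a trend and 1 after quantile normalization, and 3 in the pooled fit with or without the mouse as a block, which added Egr1. At 1 hr 0 were called, against 4 with all 40 libraries in one fit and 4 with the mouse as a block; for the change from 0 to 6 hr 0 were called, against 1 with the mouse as a block. The block, random for genotype and fixed for time and the difference in change, changed no other call than those given with it. Without each mouse in turn, the members called ranged from 0 to 1 at 0 hr, 0 to 3 at 1 hr, 0 to 3 at 3 hr and 0 to 2 at 9 hr, and Nr4a1 at 1 hr from -0.35 to 0.00 (0.0024 without WT mouse 69). Egr1 in WT from 0 to 9 hr ranged from -0.0591 (without WT mouse 88) to 0.142 without single mice, and Nr4a1 in Cpeb4-/- from 0 to 9 hr went from -0.21 to 0.0483 after quantile normalization. The share of the peak of Nr4a1 at 9 hr differed by 2.26 to 3.16 percentage points without single mice, where 3 against 4 cannot go below an exact permutation p of 0.0571. The causes were not tested. Over all genes, calls between genotypes at 1 hr went from 251 to 4182 in the pooled fit and to 54 with no filter; at 3 hr from 481 to 1311 and 90; at 9 hr from 1029 to 2280 and 369; at 0 hr from 171 to 326 and 43; and at 6 hr from 2129 to 868 with no filter. Depth could not be weighed, since the table holds no counts.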
